A study of Mus musculus with 29 samples.

Results

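The 8 genes described here were listed together as decidual cell enzymes and stress proteins: Tdo2, Ido1, Aoc1, Alpl, Plekhg4, Cryab, Htra1 and Htra3. That is the name of the list, and Ido1, Htra1 and Htra3 were not higher at GD5.5 than at GD4.5. The cells that held each RNA were not tested. The 8 genes were selected chiefly on their measured uterine levels at gestation day (GD) 4.5 and 5.5. Their differences between exposures and between days at GD4.5 and GD5.5 are therefore given as a description, with no test. Their levels at GD1.5 and GD3.5 were also known when they were selected. The p-values and calls given for members on those days are therefore a description too. The members were found by the gene name or accession of each probe on the array, under which Aoc1, Alpl and Ido1 appear by their older names Abp1, Akp2 and Indo. Together they had 12 of the 41174 probes that are no controls, and 8 of the 27670 gene names.

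Around the time of embryo attachment in mice, stromal cells of the uterus enlarge, divide and turn into decidual cells, a process called decidualization. Decidual cells take on functions of their own, which include alkaline phosphatase activity, breakdown of tryptophan and of diamines, and the secretion of proteases and of hormones of the prolactin family. Tdo2 (tryptophan dioxygenase) and Ido1 (indoleamine dioxygenase) open the tryptophan ring on the way to kynurenine. Aoc1 is diamine oxidase, which oxidizes histamine and putrescine, and Alpl is the tissue-nonspecific alkaline phosphatase. Plekhg4 is a guanine nucleotide exchange factor, Cryab is a small heat shock protein that holds unfolded proteins in solution, and Htra1 and Htra3 are secreted serine proteases of the HtrA family that cut extracellular matrix proteins.

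Uteri came from female CD-1 mice treated as newborns, on postnatal days 1 to 5, with genistein (GEN), a soy isoflavone that acts on estrogen receptors, at 50 mg/kg/day, or with corn oil alone (CON). They were taken in adult pregnancy, each on 1 single-channel (Cy3) Agilent array. GD1.5 had 4 GEN and 3 CON samples, GD3.5 had 3 of each, and GD4.5 and GD5.5 had 4 of each. The labels do not say that samples are separate animals, so p-values measure the spread between samples, and the number of arrays limits the precision. Whole uterus was measured, so a lower level may mean fewer cells of a type or less RNA per cell, which cannot be told apart.

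Levels are log2 intensities relative to the 75th percentile of the same array, and levels of different probes are not comparable. The arrays of GD1.5 and GD3.5 lay on slides 1 to 4 and those of GD4.5 and GD5.5 on slides 5 to 8, so day and slide cannot be told apart across GD3.5 and GD4.5, and that step was not tested. GD3.5 CON 3 lay alone on its slide. Between 65.5 and 80.9% of spots per array were well above background, and arrays of 1 group correlated at r = 0.949 to 0.997. The 7 smooth muscle markers were above background on every array, as were 9 or 10 of the 10 epithelial markers. Their summed level relative to the 75th percentile was 506 to 1083 in GEN and 573 to 887 in CON for muscle, and 59.6 to 186 in GEN and 87.5 to 289 in CON for epithelium.

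Cryab, Tdo2 and Htra3 were read by more than 1 probe, and their sequences are shown because probes of 1 gene did not always give the same answer. Each is 60 bases long and is written 5′ to 3′, with positions on mouse build NCBI35 (mm7) as the array design gives them. The 7 probes are:
Cryab A_52_P106482 (chr9:50734917-50734976, plus strand): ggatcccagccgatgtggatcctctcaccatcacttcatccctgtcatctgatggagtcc
Cryab A_51_P504423 (chr9:50731758-50731817, plus strand): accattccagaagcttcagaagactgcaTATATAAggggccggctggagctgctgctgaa
Tdo2 A_51_P452625 (chr3:82073120-82074397, minus strand): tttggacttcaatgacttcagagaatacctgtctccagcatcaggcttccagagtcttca
Tdo2 A_52_P404341 (chr3:82068883-82071893, minus strand): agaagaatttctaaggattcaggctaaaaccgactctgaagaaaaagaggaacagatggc
Htra3 A_51_P106538 (chr5:34714508-34714567, minus strand): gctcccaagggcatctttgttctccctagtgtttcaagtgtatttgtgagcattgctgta
Htra3 A_52_P217437 (chr5:34726403-34726462, minus strand): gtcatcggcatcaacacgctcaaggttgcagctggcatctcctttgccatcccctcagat
Htra3 A_52_P244430 (chr5:34741038-34741097, minus strand): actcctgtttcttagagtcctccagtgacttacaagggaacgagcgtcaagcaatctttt
Capitals in the second Cryab probe mark the letters TATATAA, which resemble a TATA box, an element of core promoters. That probe lies 3099 bases before the other Cryab probe on the plus strand, and 1547 bases from the nearer probe of the neighbouring gene Hspb2. The positions of both Tdo2 probes span more genome than their 60 bases (1278 and 3011 bases). The other members had 1 probe each, at chr4:137120184-137120243 on the minus strand for Alpl, chr6:48869166-48869225 on the plus strand for Aoc1, chr7:127339317-127339376 on the plus strand for Htra1, chr8:23370259-23370318 on the minus strand for Ido1 and chr8:103981364-103981423 on the plus strand for Plekhg4.

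RefSeq promoter sequences (250 bases before to 50 after a start, build GRCm38.p6) were at hand for 6 of the 8 genes, in 8 entries. Those of Tdo2 and Aoc1 are shown because both genes were far higher at GD5.5 than at GD4.5 and both entries hold ACANNNTGT, the core of the element bound by progesterone and glucocorticoid receptors. Capitals mark ACANNNTGT, the letters TATAAA or the letters CCAAT on either strand:
Tdo2 (chr3:81975679-81975978, minus strand): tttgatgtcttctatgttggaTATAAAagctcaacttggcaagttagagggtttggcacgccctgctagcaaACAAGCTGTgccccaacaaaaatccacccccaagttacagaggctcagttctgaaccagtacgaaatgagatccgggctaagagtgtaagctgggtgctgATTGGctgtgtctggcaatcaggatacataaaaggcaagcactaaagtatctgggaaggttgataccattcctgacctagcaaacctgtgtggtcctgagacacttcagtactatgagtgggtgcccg
Aoc1 (chr6:48895005-48895304, plus strand): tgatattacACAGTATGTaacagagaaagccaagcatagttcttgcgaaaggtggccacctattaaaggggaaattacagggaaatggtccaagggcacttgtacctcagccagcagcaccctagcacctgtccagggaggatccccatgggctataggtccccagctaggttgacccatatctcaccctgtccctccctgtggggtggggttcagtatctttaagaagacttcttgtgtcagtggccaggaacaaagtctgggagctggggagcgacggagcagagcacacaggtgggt
ACANNNTGT begins at position -178 in the Tdo2 entry and at -241 in the Aoc1 entry, counted from the start, and 6.8% of all 32851 promoter entries hold it. Neither the second Aoc1 entry nor the entries of Alpl, Plekhg4, Htra1 and Htra3 hold these letters. The Tdo2 entry also holds TATAAA (13.6% of entries) and CCAAT (37.4%), while Htra1 and Htra3 hold CCAAT and 1 of 2 Alpl entries holds TATAAA. The E box letters, CANNTG, were in both Alpl entries, both Aoc1 entries and the Htra3 entry, and in 72.3% of all entries. A match is only a run of letters, and no binding was measured.

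By the brightest probe, all GD5.5 arrays of Tdo2, Aoc1, Alpl and Plekhg4 stood above the GD4.5 arrays in both exposures, and those of Htra3 stood below. In CON uteri alone Cryab was higher and Htra1 lower without overlap, while the second Cryab probe was lower there. These values chose the members, and the share of all genes without overlap is not given here. Calls are at an adjusted p under 0.05 (limma, Benjamini-Hochberg adjustment over all genes tested). Between GEN and CON uteri 0 of the 8 genes passed at GD1.5 or GD3.5, where 0.0975% and 0.103% of all genes tested passed. Among all genes 0.116% passed between the exposures at GD4.5 and 0% at GD5.5, where limma called 0 of 20828 genes and 1101 had an unadjusted p under 0.05. The difference of the exposure effect between GD5.5 and GD4.5 passed for 0.00443% of genes. From GD1.5 to GD3.5, 2 members were lower in GEN uteri, where 4.76% of genes passed, and 1 was lower in CON uteri, where 2.33% passed. At GD5.5 against GD4.5, 21.0% of all genes passed in GEN and 30.1% in CON. The median log2 difference of the 8 members was 1.46 in GEN and 2.52 in CON for that step, against 0.09 and 0.02 over all genes tested.

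**Figure D1:**
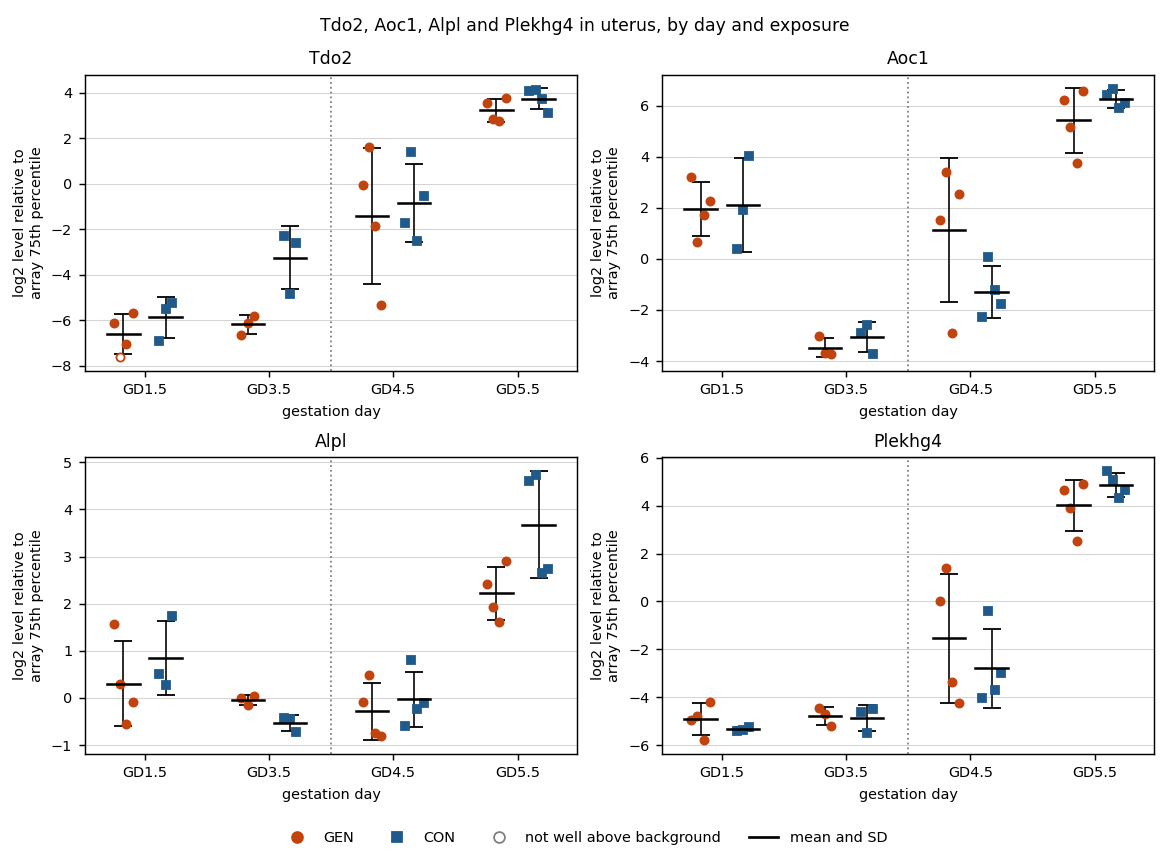
Log2 level of Tdo2, Aoc1, Alpl and Plekhg4 (brightest probe) on each array, by gestation day, with GEN as circles left of CON as squares, the group mean as a bar and its SD as whiskers. The dotted line separates days on different slides, the open circle marks an array not well above background, and all GD5.5 arrays of each gene stand above its GD4.5 arrays.

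Tdo2 levels at GD5.5 stood above those of every other day, with 3.54, 2.85, 2.75 and 3.77 in GEN uteri and 4.07, 4.10, 3.71 and 3.10 in CON uteri. At GD4.5 they were scattered over several log2 units, with -0.07, 1.62, -1.88 and -5.34 in GEN and -1.71, 1.41, -2.51 and -0.54 in CON. The 2 exposures overlapped on both days, and GEN 4 was the lowest GD4.5 array. By the other probe, A_52_P404341, the lowest GD4.5 GEN array was at -3.01, so the depth of that value rests on the brightest probe. GD5.5 lay above GD4.5 by 4.64 in GEN (SE 0.99, 25.0-fold) and by 4.58 in CON (SE 0.99, 24.0-fold), without overlap. With slide as a fixed block the GEN difference was 3.66. The exposures differed by -0.58 at GD4.5 and by -0.52 at GD5.5 (GEN minus CON, SE 0.99 each).

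At GD3.5 Tdo2 was low in all 3 GEN uteri (-6.63, -6.11 and -5.82) and higher in the 3 CON uteri (-2.28, -4.86 and -2.62). The exposures did not overlap, and the difference of -2.94 (SE 1.14, adjusted p = 0.684, limma) did not pass. Within the 2 slides that held both it was -4.35 and -0.97. The second probe, A_52_P404341, was not well above background on any GD3.5 GEN array, while the CON arrays gave -2.46, -5.53 and -2.25. By that probe Tdo2 was at least 14.7-fold lower in GEN, with each GEN array set to its lowest signal above background or to its measured value, whichever was higher. In a fit of every probe this passed (adjusted p = 0.0210, limma; 0.142% of probes passed), but not with slide as a block (0.203), under quantile normalization (0.0850), under normexp background correction (0.928), or without any 1 of the GEN arrays (0.0629 to 0.148). It also missed the threshold with a replicate block (0.0518) and in a fit of only the arrays compared (0.133), and passed under median centring (0.0196).

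In CON uteri the second Tdo2 probe was also higher at GD3.5 than at GD1.5, where its levels were -9.84, -7.70 and -6.43. Of these 3 arrays only CON 3 was well above background, so the size of the difference is uncertain. The fitted difference of 4.58 (SE 1.04, adjusted p = 0.0208, limma, in the fit of every probe, where 1.88% of probes passed) did not pass without GD3.5 CON 3 (adjusted p = 0.150) or CON 1 (0.108), or without GD1.5 CON 1 (0.114) or CON 2 (0.0672). Nor did it pass under normexp correction (0.418), quantile normalization (0.0558), slide as a block (0.245) or a fit of only the arrays compared (0.166). The brightest probe gave 2.62 (SE 1.14, adjusted p = 0.289). In GEN uteri the brightest probe differed by 0.43 (SE 1.07, adjusted p = 0.888) between those days. Tdo2 thus had mean levels ordered from GD5.5 CON (3.75 ± 0.47, SD, n = 4) and GD5.5 GEN (3.23 ± 0.51, n = 4) down to GD1.5 GEN (-6.62 ± 0.88, n = 4). Neighbours in that order overlapped except below GD5.5 GEN and below GD3.5 CON.

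**Figure D2:**
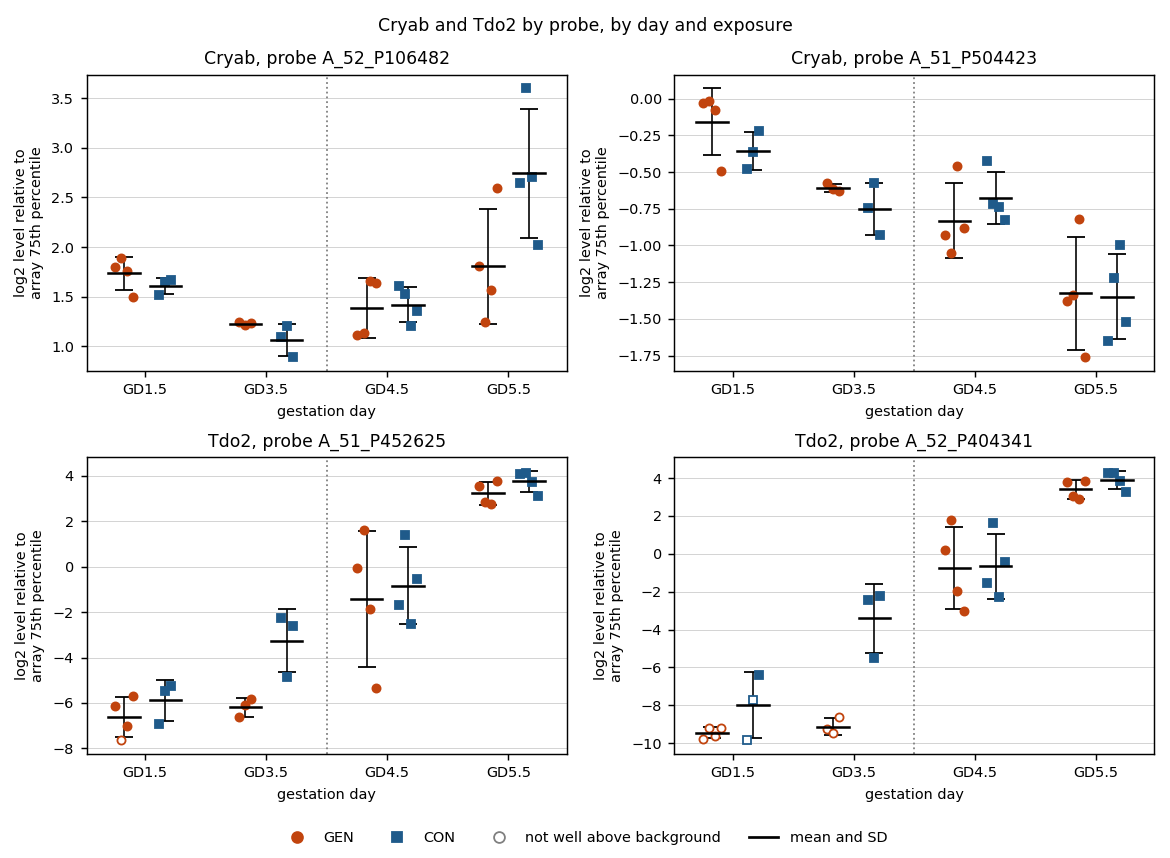
Log2 level by probe for Cryab (top) and Tdo2 (bottom), by gestation day, with GEN left of CON, means as bars and SD as whiskers; open symbols are not well above background. The Cryab probes run in opposite directions at GD5.5, while the Tdo2 probes run alike from GD4.5 on, and the second was not well above background on any GEN array of GD1.5 or GD3.5.

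Ido1 is the other enzyme of the same step, and its levels at GD5.5 overlapped those at GD4.5 in both exposures. It had -4.70, -4.42, -4.16 and -4.56 in GEN and -4.35, -4.66, -4.53 and -3.78 in CON at GD5.5, against -4.56, -4.35, -3.89 and -3.66 in GEN and -3.48, -4.47, -4.69 and -2.60 in CON at GD4.5. The exposures overlapped too. GD5.5 minus GD4.5 was -0.35 in GEN, but 1.06 under normexp background correction, where the median of all genes was 0.36. Earlier, GEN uteri had -3.64, -1.80, -2.43 and -4.30 at GD1.5 and -4.43, -5.43 and -5.28 at GD3.5. All GD3.5 GEN arrays were below all GD1.5 GEN arrays, by 2.00 in the means (SE 0.53, adjusted p = 0.0300, limma; -3.00 to -1.30 within 3 slides).

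In CON uteri Ido1 was -4.96, -4.54 and -4.11 at GD1.5 and -4.00, -2.71 and -4.84 at GD3.5, with overlap (difference 0.69, SE 0.57, adjusted p = 0.720). GEN stood above CON by 1.49 at GD1.5 (SE 0.53, adjusted p = 0.546) and below it by 1.20 at GD3.5 (GEN minus CON -1.20, SE 0.57, adjusted p = 0.907). The call in GEN ended under normexp background correction (adjusted p = 0.186), quantile normalization (0.0561), a replicate block (0.0553) and a fit of only the arrays compared (0.104), and without GD1.5 GEN 2 or 3 or GD3.5 GEN 3 or 4 (0.0811 to 0.163). Neutrophil markers, the sum of 5 genes, were 7.91 to 35.1 at GD3.5 and 124 to 263 at GD1.5 in GEN uteri, and 2.82 to 20.0 and 116 to 172 in CON uteri. Macrophage and dendritic cell markers, the sum of 6 genes, were 15.1 to 23.0 at GD3.5 and 23.9 to 39.8 at GD1.5 in GEN uteri, without overlap. In CON uteri they were 17.7 to 21.4 at GD3.5 and 15.7 to 36.0 at GD1.5, with overlap. The part of either cell group in the level of Ido1 was not tested. No neighbouring groups in the order of Ido1 means, which ran from GD1.5 GEN (-3.04) to GD3.5 GEN (-5.05), were free of overlap.

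The list of other genes of tryptophan use moved in both directions at GD5.5. Of 13 listed beside Tdo2 and Ido1, 11 had a probe. This list and the other gene lists below were chosen with earlier results of these data known. Their counts and p-values are therefore a description. At GD5.5 against GD4.5, 1 rose and 1 fell of 10 tested in GEN uteri, and 2 rose and 3 fell of 9 tested in CON uteri, where 21.0% and 30.1% of all genes passed. The list's median log2 difference was 0.15 in GEN and 0.09 in CON. Aadat, a kynurenine aminotransferase, was higher in CON by 1.69 (SE 0.28, adjusted p = 1.43e-04). Kyat1 and Kyat3, further kynurenine aminotransferases, fell by 0.87 and 0.91 in CON (SE 0.19 and 0.16). Kmo, the kynurenine hydroxylase, was not well above background on any GD5.5 array and was at least 2.04-fold lower than at GD4.5 in GEN (adjusted p = 0.00826) and at least 2.28-fold lower in CON (adjusted p = 0.00168). Tph1, which starts serotonin synthesis, was higher in GEN by 0.98 (SE 0.32, adjusted p = 0.0346). None of the tested genes of the list passed between GEN and CON on any of the 4 days.

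Aoc1 fell between GD1.5 and GD3.5 and was highest at GD5.5. At GD1.5 it had 3.20, 0.66, 1.73 and 2.25 in GEN and 0.38, 1.91 and 4.04 in CON. At GD3.5 it had -3.03, -3.68 and -3.71 in GEN and -2.88, -2.57 and -3.72 in CON. All GD3.5 arrays lay below all GD1.5 arrays. Aoc1 fell by 5.43 in GEN (SE 1.05, adjusted p = 0.00284, 43.2-fold lower) and fell by 5.17 in CON (SE 1.12, adjusted p = 0.0128, 35.9-fold lower), both in limma's test. The fall in CON did not pass with slide as a block (adjusted p = 0.257) or without GD1.5 CON 3 (0.0967) or GD3.5 CON 3 (0.0859), and the difference was -3.26 within the 1 slide that held both days. The exposures overlapped at GD1.5 and GD3.5 (GEN minus CON -0.15, SE 1.05, and -0.41, SE 1.12).

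At GD4.5 Aoc1 was 1.51, 3.40, -2.91 and 2.53 in GEN uteri and -2.27, 0.08, -1.20 and -1.77 in CON uteri. Thus 3 GEN arrays were above all CON arrays and GEN 3 was below them all, so the difference of 2.42 (SE 0.97) joined groups that overlapped. Within 3 slides it ran from -1.15 to 4.60, and without GEN 3 it was 3.77. At GD5.5 Aoc1 was 6.22, 5.16, 3.74 and 6.56 in GEN and 6.43, 6.64, 5.88 and 6.09 in CON, overlapping. GD5.5 stood above GD4.5 by 4.29 in GEN (SE 0.97, 19.5-fold) and by 7.55 in CON (SE 0.97, 188-fold). In the order of means the GD5.5 groups led, the GD1.5 groups followed and GD3.5 GEN (-3.47 ± 0.38, SD, n = 3) was last. Only GD4.5 CON was clear of its lower neighbour, GD3.5 CON.

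Among genes that make or break down histamine and polyamines, Hdc, Maob and Paox fell at GD5.5 in both exposures. Of 16 listed beside Aoc1, all tested, 1 rose and 4 fell in GEN (21.0% of all genes passed) and 1 rose and 5 fell in CON (30.1%) at GD5.5 against GD4.5. The list's median log2 difference was 0.0015 in GEN and -0.05 in CON. Hdc, which makes histamine from histidine, fell by 2.60 in GEN (SE 0.50, adjusted p = 0.00152) and by 3.35 in CON (SE 0.50, adjusted p = 4.36e-05). Its level was 1.48 ± 0.93 at GD5.5 and 4.08 ± 1.17 at GD4.5 in GEN, and 1.50 ± 0.13 and 4.86 ± 1.12 in CON (SD, n = 4 each). Maob, a monoamine oxidase, fell by 1.68 in GEN and fell by 1.92 in CON (SE 0.40 each), and Paox, a polyamine oxidase, fell by 0.90 and 0.79 (SE 0.23 each). Hnmt, which methylates histamine, fell by 1.04 in CON (SE 0.28, adjusted p = 0.00724). From GD1.5 to GD3.5, 2 of the 16 rose and 2 fell in GEN, and 1 rose and 1 fell in CON. Maob rose by 2.36 in GEN (SE 0.44, adjusted p = 0.00185), and Paox fell by 0.94 in GEN and 1.20 in CON (SE 0.25 and 0.27). None of the 16 passed between GEN and CON on any day.

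Alpl at GD5.5 was 2.42, 1.94, 1.62 and 2.92 in GEN uteri and 4.60, 4.74, 2.65 and 2.74 in CON uteri. CON 1 and CON 2 stood above all GEN arrays, while CON 3 and CON 4 lay just below GEN 4. GEN was lower than CON by 1.46 (GEN minus CON -1.46, SE 0.49), which is 2.74-fold, and within 3 slides the difference ran from -2.80 to 0.18. At GD4.5 Alpl was -0.08, 0.49, -0.75 and -0.80 in GEN and -0.59, 0.80, -0.23 and -0.11 in CON, overlapping. GD5.5 stood above GD4.5 by 2.51 in GEN (SE 0.49, 5.69-fold) and by 3.71 in CON (SE 0.49, 13.1-fold), with no overlap. With slide as a fixed block the GEN difference was 1.97.

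Before implantation Alpl was higher in each GEN uterus at GD3.5 (-0.01, -0.16 and 0.03) than in each CON uterus (-0.43, -0.45 and -0.72). That difference of 0.49 (SE 0.56, adjusted p = 1.00, limma; 0.42 and 0.48 within 2 slides) did not pass. At GD1.5 the exposures overlapped, with 1.56, 0.29, -0.55 and -0.09 in GEN and 0.51, 0.28 and 1.75 in CON. No neighbours in the order of the 8 Alpl means, from GD5.5 CON (3.68 ± 1.14) to GD3.5 CON (-0.53 ± 0.16), were free of overlap. Of 10 other genes of phosphate and pyrophosphate handling, 9 had a probe. Slc20a1, a phosphate transporter, rose at GD5.5 against GD4.5 by 0.94 in GEN (SE 0.29, adjusted p = 0.0271) and by 1.49 in CON (SE 0.29, adjusted p = 6.25e-04). Enpp1, which makes pyrophosphate, fell by 0.66 in CON (SE 0.22, adjusted p = 0.0237), so 1 of 8 tested rose in GEN, and 1 rose and 1 fell of 8 in CON, both below the share over all genes (21.0% and 30.1%).

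Plekhg4 was low at GD1.5 and GD3.5, where its 13 arrays lay between -5.79 and -4.18. At GD4.5 it was 0.03, 1.41, -3.36 and -4.23 in GEN uteri and -4.04, -0.42, -3.69 and -3.01 in CON uteri. GEN 1, GEN 2 and CON 2 were set apart from the other 5 arrays, and the exposures overlapped (GEN minus CON 1.25, SE 0.89; -0.36 to 5.11 within slides). At GD5.5 it was 4.67, 3.91, 2.53 and 4.92 in GEN and 5.45, 5.05, 4.30 and 4.65 in CON. GD5.5 stood above GD4.5 by 5.54 in GEN (SE 0.89, 46.7-fold) and by 7.66 in CON (SE 0.89, 202-fold), and GEN minus CON at GD5.5 was -0.86 (SE 0.89). Between exposures at GD1.5 and GD3.5 the difference was 0.40 and 0.07 (SE 0.96 and 1.03, adjusted p = 1.00 each). In the order of its means, GD5.5 GEN and GD4.5 CON were clear of their lower neighbours, and the 4 earlier groups overlapped.

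Cryab at GD5.5, by its brightest probe A_52_P106482, was 1.81, 1.24, 1.57 and 2.60 in GEN uteri and 2.64, 3.60, 2.70 and 2.02 in CON uteri. Of the GEN arrays, 3 lay below all CON arrays and GEN 4 lay among them. GEN minus CON was -0.94 (SE 0.25, 1.91-fold lower), with an SE of 0.48 when taken as 4 pairs of the same replicate number. Within 3 slides the difference ran from -2.36 to 0.58. Without GEN 4 it was -1.20. At GD4.5 Cryab was 1.12, 1.14, 1.66 and 1.64 in GEN and 1.60, 1.53, 1.20 and 1.35 in CON. GD5.5 stood above GD4.5 by 1.32 in CON (SE 0.25, 2.50-fold, no overlap) and by 0.42 in GEN (SE 0.25, overlapping). The difference between those steps was -0.90 (SE 0.36).

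The second Cryab probe, with the TATATAA letters, went the other way. In GEN it was -1.38, -1.34, -0.82 and -1.76 at GD5.5, against -0.93, -1.05, -0.46 and -0.88 at GD4.5. In CON it averaged -1.35 ± 0.29 at GD5.5, against -0.68 ± 0.18 at GD4.5 (SD, n = 4 each). Its GD5.5 level was below that of GD4.5 by 0.50 in GEN (log2 -0.50, SE 0.17) and by 0.67 in CON (log2 -0.67, SE 0.17). It showed no gap between exposures at GD5.5 (0.02, SE 0.17). Hspb2, a small heat shock gene beside Cryab, had -0.61 in GEN (SE 0.22, adjusted p = 0.0545) and fell by 0.74 in CON (SE 0.22, adjusted p = 0.0157) over the same step. With the mean over both Cryab probes, GD5.5 minus GD4.5 was -0.04 in GEN and 0.33 in CON, so the height of Cryab at GD5.5 rests on the brightest probe.

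By the brightest Cryab probe, GD3.5 lay below GD1.5 on all arrays of each exposure. Levels were 1.24, 1.21 and 1.23 at GD3.5 and 1.80, 1.89, 1.76 and 1.50 at GD1.5 in GEN, and 1.10, 1.21 and 0.89 at GD3.5 and 1.51, 1.64 and 1.66 at GD1.5 in CON. The differences of -0.51 in GEN (SE 0.27, adjusted p = 0.351) and -0.54 in CON (SE 0.29, adjusted p = 0.441) did not pass, nor did GEN minus CON at GD3.5 (0.16, SE 0.29, adjusted p = 1.00). In the order of means GD5.5 CON led (2.74 ± 0.65), and only GD3.5 GEN was clear of its lower neighbour, GD3.5 CON.

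The heat shock list held 14 measured genes beside Cryab. At GD5.5 against GD4.5, 2 rose and 1 fell of 13 tested in GEN, and 4 rose and 3 fell of 14 in CON, where 21.0% and 30.1% of all genes passed. The list's median log2 difference was 0.22 in GEN and 0.10 in CON. Cryaa, the other alpha crystallin, rose by 1.85 in GEN (SE 0.39, adjusted p = 0.00284) and by 1.64 in CON (SE 0.39, adjusted p = 0.00312). Hspb8, a small heat shock protein, rose by 0.79 in GEN and 0.87 in CON (SE 0.22 each). Hspa1a, the inducible heat shock protein of the main chaperone family, fell by 1.36 in GEN and 0.98 in CON (SE 0.36 each). Hspb7 fell by 1.13 in CON (SE 0.28, adjusted p = 0.00346).

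Htra3 ran opposite to Tdo2 and Aoc1 between GD4.5 and GD5.5. At GD5.5 it was 2.48, 3.53, 3.82 and 2.26 in GEN uteri and 1.56, 2.18, 3.16 and 2.21 in CON uteri, against 3.86, 3.87, 4.22 and 5.26 in GEN and 4.17, 3.22, 4.41 and 3.93 in CON at GD4.5. By the brightest probe, all GD5.5 arrays of an exposure were below its GD4.5 arrays. The difference was -1.28 in GEN (SE 0.37, 2.42-fold lower) and -1.66 in CON (SE 0.37, 3.15-fold lower). With slide as a fixed block the GEN difference was -0.81. GEN minus CON at GD5.5 was 0.75 (SE 0.37), positive within 3 of 3 slides (0.06 to 1.59), while the groups overlapped. It was positive in 4 of 4 pairs of the same replicate number (0.06 to 1.35). Of these pairs 3 share a slide, so pairs and slides draw on the same arrays. Alpl, Aoc1, Cryab, Plekhg4 and Tdo2 were positive in 1 of 4 pairs, Ido1 in 2 and Htra1 in 3. The order of means ran from GD1.5 CON (5.42 ± 0.47) and GD1.5 GEN (5.15 ± 0.32) through GD3.5 and GD4.5 to GD5.5 CON (2.28 ± 0.66), and every pair of neighbours overlapped.

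In GEN uteri Htra3 was lower at GD3.5 (4.02, 4.48 and 4.46) than at GD1.5 (5.22, 4.86, 4.95 and 5.58) on all arrays. The difference was -0.83 by the brightest probe (SE 0.40, adjusted p = 0.280) and -0.99 by A_52_P217437 (SE 0.28, adjusted p = 0.0490, limma, in the fit of every probe, where 4.09% of probes passed). In CON uteri it was -0.73 (SE 0.43, adjusted p = 0.501). By A_52_P217437 the later days overlapped in GEN, with -1.38 to -0.52 at GD5.5 and -0.84 to 0.11 at GD4.5. In CON they did not, with -1.67 to -0.81 at GD5.5 and -0.78 to -0.06 at GD4.5. The lack of overlap in GEN at GD5.5 thus rests on the brightest probe. The third probe, A_52_P244430, was well above background on 5 of the 29 arrays and gave no usable level.

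Htra1 differed little between groups. At GD5.5 it was 4.80, 5.30, 5.36 and 4.35 in GEN and 4.53, 4.78, 4.83 and 4.79 in CON, against 5.53, 4.89, 5.20 and 5.57 in GEN and 5.56, 5.24, 5.07 and 5.18 in CON at GD4.5. The CON arrays of the days did not overlap (difference -0.53, SE 0.21), and the GEN arrays did (-0.34, SE 0.21). GEN minus CON was between 0.00 and 0.22 in size on all 4 days. At GD3.5 it averaged 5.54 ± 0.03 in GEN, its highest group mean, and neighbours in the order of all 8 means overlapped.

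Of 12 other HtrA proteases and matrix or TGF-beta substrates, 1 rose and 4 fell in each exposure at GD5.5 against GD4.5, where 21.0% of all genes passed in GEN and 30.1% in CON. The list's median log2 difference was 0.04 in GEN and 0.13 in CON. Ltbp1, which binds latent TGF-beta, fell by 1.55 in GEN (SE 0.33, adjusted p = 0.00280) and by 1.46 in CON (SE 0.33, adjusted p = 0.00187). Dcn (decorin) fell by 0.56 in GEN and 1.14 in CON (SE 0.19 each), and Fbln5, a protein of elastic fibres, fell by 0.81 and 0.92 (SE 0.22 each). Htra2, the mitochondrial family member, rose by 0.64 in GEN and 0.58 in CON (SE 0.17 each). From GD1.5 to GD3.5, Tgfb2 rose by 0.79 in GEN (SE 0.22, adjusted p = 0.0419) and Clu (clusterin) fell by 2.00 in CON (SE 0.48, adjusted p = 0.0276).

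**Figure D3:**
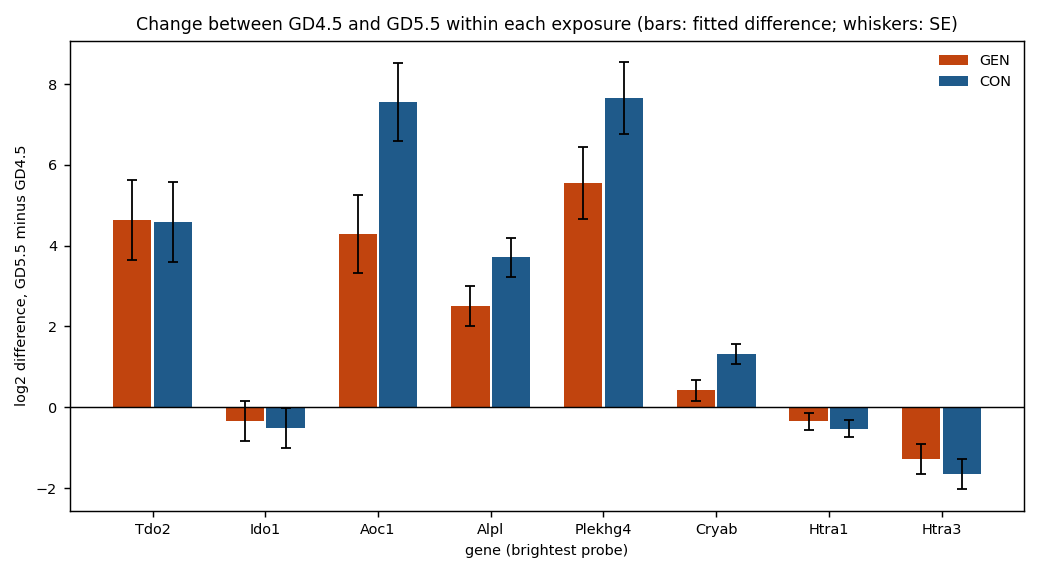
Fitted log2 difference GD5.5 minus GD4.5 for each gene (brightest probe), with GEN left of CON and SE as whiskers. Tdo2 has bars of like height in GEN and CON (4.64 and 4.58), Aoc1, Alpl, Plekhg4 and Cryab have shorter bars in GEN, and Htra1, Htra3 and Ido1 lie below 0.

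Most genes on a list of decidual regulators and products rose over the same step. The list was chosen with earlier results of these data known, so its counts and p-values are a description. Of 16 listed, 9 rose in GEN (21.0% of all genes passed), 12 rose in CON (30.1%) and 0 fell in either. Prl8a2, a decidual prolactin, averaged 2.02 ± 2.33 at GD5.5 and -5.38 ± 2.92 at GD4.5 in GEN (adjusted p = 1.12e-04, limma). In CON it averaged 3.44 ± 0.98 at GD5.5 and -5.56 ± 1.13 at GD4.5 (adjusted p = 2.47e-06, limma; SD, n = 4 each). Bmp2, which drives decidualization, rose by 3.18 in GEN and 4.30 in CON (SE 0.54 each), and Wnt4, which acts after it, rose by 2.93 and 3.95 (SE 0.45 each). Prl3c1, another decidual prolactin, rose by 6.25 in GEN (SE 1.14, adjusted p = 9.92e-04) and was at least 334-fold higher at GD5.5 in CON, where no GD4.5 array was well above background. None of the 16 passed between GEN and CON on any of the 4 days, or in the difference between GD5.5 and GD4.5.

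GD4.5 arrays differed among themselves in the genes that were high a day later. GEN 1, GEN 2 and CON 2 held the 3 highest levels of Plekhg4 and of Tdo2 and, in another order, of Alpl. For Aoc1 the 3 highest were GEN 2, GEN 4 and GEN 1. GEN 4 combined a high Aoc1 (2.53) with the lowest Plekhg4 (-4.23), Tdo2 (-5.34) and Alpl (-0.80) of that day, and its neutrophil markers summed to 113, against 1.75 to 6.17 on the other GEN arrays and 7.89 to 35.0 on the CON arrays. GEN 2 had an adipocyte marker sum of 124 (5 genes), against 1.79 to 11.8 on the other GEN arrays and 1.86 to 22.7 in CON. The part of these cells in the members' levels was not tested.

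At GD5.5, markers of several cell types moved with the members. The 8 decidual stroma markers summed to 25.4 to 63.3 in GEN and 35.3 to 58.3 in CON, against 14.8 to 20.8 and 13.8 to 17.0 at GD4.5. Bmp2, Wnt4, Prl8a2 and Prl3c1, named above, are among these markers, so the sum is no separate observation. GEN 3 had the lowest decidual sum of GD5.5 and the lowest Aoc1, Alpl, Plekhg4 and Tdo2 of that day, and it had the highest smooth muscle sum (1083, against 506 to 618 on the other GEN arrays and 573 to 734 in CON). In CON the smooth muscle sums were 573 to 734 at GD5.5 and 853 to 887 at GD4.5, and 4 of the 7 markers fell and 1 rose. The 6 macrophage and dendritic cell markers summed to 6.54 to 13.4 in GEN and 5.08 to 10.5 in CON at GD5.5, against 10.1 to 25.2 and 12.4 to 26.6 at GD4.5. Of them 1 fell in GEN and 5 fell in CON. The epithelial sums at GD5.5 did not overlap between exposures, with at most 164 in GEN and at least 178 in CON, but 0 of the 10 markers passed. Nor did they overlap at GD1.5, with at most 137 in GEN and at least 145 in CON. On GD4.5 arrays, GEN 1, GEN 2 and GEN 3 had 88.8, 59.6 and 111, below all CON arrays (130 to 218). GEN 4, at 186, lay among the CON arrays. The median log2 difference of the 10 markers (GEN minus CON) was farthest from 0 on that day, at -1.15, and 0 passed. It was -0.46 for GD5.5, -0.45 for GD3.5, where the sums overlapped, and -0.39 for GD1.5. In CON the sums were 130 to 218 at GD4.5 and 178 to 289 at GD5.5, while 4 of the 10 markers fell and 0 rose. The sum and the single markers thus moved differently. The 6 trophoblast and embryo markers summed to 0.552 to 5.03 in GEN and 2.12 to 5.05 in CON at GD5.5. At GD4.5 they summed to 0.222 to 0.463 in GEN and 0.272 to 0.585 in CON. The 0.552 was that of GEN 3, and the next lowest GD5.5 array was GEN 2 at 1.52. The 5 ovary markers summed to 1.05 to 8.69 in GEN and 5.96 to 9.25 in CON, against at most 0.455 in GEN and 0.392 in CON at GD4.5; that list includes Cyp11a1, which decidual cells also express. Liver markers were near 0 throughout (at most 0.120, 3 of 4 measured). The part of these shifts in the members' levels was not tested.

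**Figure D4:**
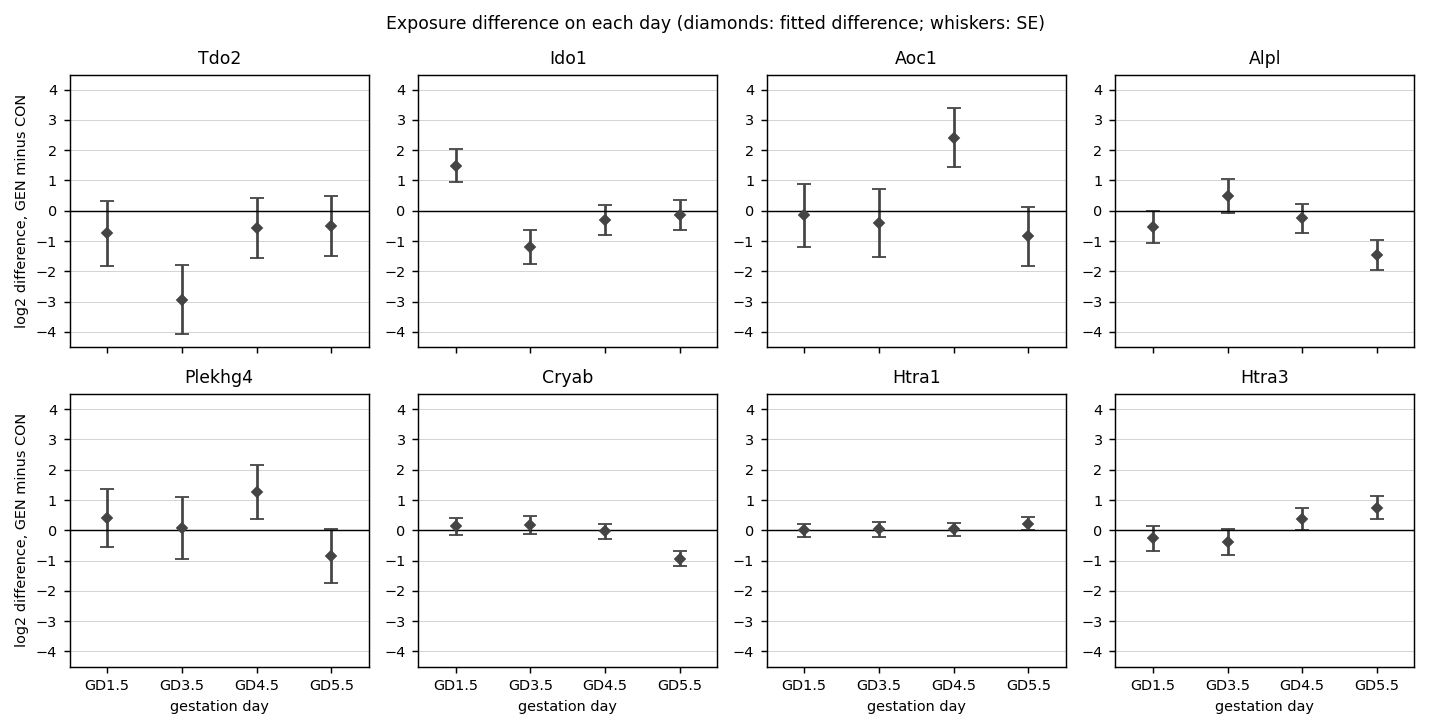
Fitted log2 difference GEN minus CON on each gestation day for each gene (brightest probe), with SE as whiskers. The farthest points from 0 are Tdo2 at GD3.5 (-2.94), Aoc1 at GD4.5 (2.42), Ido1 at GD1.5 (1.49) and Alpl at GD5.5 (-1.46).

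Genes whose profiles ran closest to a member over the 16 arrays of GD4.5 and GD5.5 were found by the root mean square of the log2 difference after each gene was centred on its mean, among 15573 named genes. Slc30a2, a zinc transporter, was nearest to Plekhg4 (0.50, where Plekhg4 itself had an SD of 3.65), with Sct, the secretin gene (0.60), and Cyp11a1, the first enzyme of steroid synthesis (1.00), after it. Sct (1.03) and Slc30a2 (1.04) were also among the 3 nearest to Tdo2, after Kng1, the kininogen gene (0.85, SD of Tdo2 2.77). Aoc1 was followed by Duoxa1 (1.22, SD of Aoc1 3.40). Alpl was followed by Uchl1 (0.57), Sbsn (0.58) and Glis1 (0.59), and Cryab by Isyna1 (0.27). Htra3 was followed by Rcan2 (0.21) and Htra1 by Atp8a2 (0.16). Ido1 was closest to Septin1, to the T cell kinase gene Lck (both 0.29) and to Prkcq, a protein kinase C gene of T cells (0.30), against its own SD of 0.55.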

How the data were processed

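RNA of whole uterus was measured on 29 one-colour Agilent arrays, 1 per sample, labelled from 500 ng of total RNA. Per the file headers, the authors scanned the arrays and deposited each spot's Cy3 intensity, with background subtracted, from Feature Extraction (version 9.5, per the submitters' processing notes). The series' own value table held the same intensity values as deposited per array, with a largest difference of 0%.

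From these, log2 intensities were set relative to each array's 75th percentile over spots that are no controls, and spots marked by the scanner software as outliers (34 to 149 per array) were left missing. Probes were named through RefSeq accessions, symbols or synonyms. The brightest probe stood for a gene. Testing a gene required 3 or more arrays of the compared groups with its spot well above background. All 29 arrays entered 1 fit of group means (limma 3.58.1, R 4.3.3), with Benjamini-Hochberg adjustment and a threshold of 0.05. The fit was tested on simulated data first.

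The 8 genes and the companion and marker lists were chosen with earlier results of these data known, so their counts and p-values are a description. From each companion list, up to 4 genes past the threshold were named per comparison by the size of the log2 difference; Hspb2 is named as the neighbour of Cryab. The companion list of Plekhg4 is not reported here. Deviations from group means were correlated between arrays of the same replicate number. All 4 pairs correlated above 0.1 between GEN and CON at GD5.5 (r = 0.33 to 0.43, 3 of 4 pairs on 1 slide). In no other comparison did every pair (12 of 27 in all, r from -0.27 to 0.49). The fit of group means did not use the pairs, so its SEs for GD5.5 are unpaired. Taken as 4 pairs, the SE of GEN minus CON was 0.52 for Alpl, 0.47 for Aoc1, 0.48 for Cryab and 0.35 for Plekhg4. It was 0.34 for Tdo2, 0.23 for Ido1, 0.21 for Htra1 and 0.23 for Htra3. Alternatives covered background correction (normexp, offset 50), normalization, filters, probe choice, slide and replicate blocks, the arrays fitted, and leaving out each array.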

Additional observations from a re-analysis of the deposited data

Results flagged for a closer look

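Htra1 on the GD5.5 CON 1 array was 4.53, apart from the nearest of the other CON arrays at 4.78. It was the 1 such array among 40 groups of 4 arrays examined, where chance gives about 1 in 20.

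Ido1 differed between GEN and CON uteri in opposite directions on the first days. All 3 GEN arrays were below the CON mean at GD3.5, and all 4 were above it at GD1.5, and the exposure difference at GD3.5 less that at GD1.5 was -2.69 (SE 0.78). That contrast was chosen after the values were seen. Its adjusted p was 1.00 (limma, 0 of 21063 genes called; unadjusted p = 0.00221).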

How the results depend on the processing

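Of 1383 values of the members under the alternatives, 1348 kept their side of the threshold without a clear turn, 24 no longer passed, 8 came to pass and 3 turned direction. Those at GD4.5 and GD5.5, the days that chose the members, only describe the settings. The 3 that turned were Cryab, GD5.5 minus GD4.5 in GEN, with the mean over probes (-0.04), and Ido1 under normexp, where it passed in the other direction for GEN minus CON at GD5.5 and for GD5.5 minus GD4.5 in GEN (1.06, -0.35 without it). Under normexp background correction 3 members passed between GEN and CON at GD5.5, against 0 otherwise, but so did 9507 of all genes, and Ido1 stood at 1.03 there (GEN minus CON, -0.13 without it); the cause was not tested. For GD3.5 minus GD1.5 in GEN, 1 member passed in place of 2 under normexp, under quantile normalization and with a replicate block. The replicate block changed no other count of members called, and a block of the 4 pairs within GD5.5 alone, added after seeing the data, called 0 members and 0 of all genes. In CON the 1 call of that step was lost (0) with slide as a fixed block and with only the arrays compared. For GD5.5 minus GD4.5 in GEN, 2 members passed in place of 5 with slide as a fixed block (Alpl, Tdo2 and Htra3 no longer did). With only the arrays compared, 0 passed. Over all genes the same settings called 943 and 0, in place of 4405. In CON the fit of only the arrays compared called 4331 of all genes, in place of 6515. Why the loss was larger in GEN was not tested. Leaving out 1 array at a time gave 0 to 1 members called between GEN and CON at GD4.5 (Aoc1, without GEN 3) and at GD5.5 (Cryab, without GEN 4). It gave 1 to 2 for GD3.5 minus GD1.5 in GEN, 0 to 1 in CON, 4 to 5 for GD5.5 minus GD4.5 in GEN and 6 in CON. Over all genes it gave 328 to 1127, 154 to 340, 2156 to 5619 and 4833 to 7301, in the same order. Between GEN and CON it gave 3 to 79 of all genes at GD4.5 and 0 to 223 at GD5.5. The member counts of GD4.5 and GD5.5 come from the days that chose the members, so they only describe the settings.

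Over all genes, the other settings called 1 to 28 genes between GEN and CON at GD1.5 (20 as reported), 4 to 44 at GD3.5 (21), 4 to 53 at GD4.5 (25) and 0 to 9507 at GD5.5 (0). They called 467 to 1260 for GD3.5 minus GD1.5 in GEN (971), 120 to 586 in CON (481), 0 to 11578 for GD5.5 minus GD4.5 in GEN (4405) and 4331 to 9061 in CON (6515). Normexp moved the median of all genes by over 0.1, to 0.36 for GD5.5 minus GD4.5 in GEN. The alternatives for the second Tdo2 probe and the contrast of Ido1 at GD3.5 and GD1.5 were chosen after seeing the data. Where no array of a group was well above background, as for that Tdo2 probe in GEN at GD1.5 and GD3.5, its level is only a bound.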
